A study of Mus musculus and Homo sapiens with 22 samples.

Results

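The PROX1 binding map of Hep3B cells held 14369 CUT&RUN peaks, of which 14247 lay on chromosomes 1 to 22. The 4817 peaks described here had their summit more than 1 kb from every transcription start site (TSS) annotated in GENCODE 44 on the human genome build hg38. They made up 33.8% of the peaks on these chromosomes (95% Wilson interval 33.0 to 34.6) and are called distal peaks. The other 9430 peaks, whose summit was at most 1 kb from a TSS, are called promoter peaks and serve as the comparison. All 3 peak lists of the series together held 105059 peaks.

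In CUT&RUN, a nuclease tethered by an antibody cuts the DNA around a chromatin-bound protein, and the released fragments are sequenced. Hep3B is an established human hepatocellular carcinoma line. The cells carried a lentiviral, doxycycline-inducible PROX1 construct, were selected with puromycin and received 2 µg/ml doxycycline, so that tagged PROX1 was overexpressed for 2 days. The groups used here were 3 Hep3B samples taken with a FLAG antibody, 3 Hep3B samples taken with a nonspecific IgG, and, for comparison, 2 mouse groups. These were 3 FLAG samples of mouse embryonic fibroblasts (MEFs) from C57BL/6N embryos at embryonic day 13.5, which overexpressed FLAG-tagged Prox1 from a doxycycline-inducible lentivirus for 2 days, and 5 samples of liver nuclei, labelled hepatocyte, from untreated C57BL/6J mice aged 2 to 3 months. The liver samples were taken with an antibody to Prox1 itself, without overexpression, and are used only in the comparison of nearest genes. The titles of the MEF samples name no other transgene. The authors' methods describe this transduction under hepatocyte reprogramming and name a peak set for induced hepatocytes. Whether the MEFs also received the reprogramming factors is not known here. The Hep3B IgG samples carried the same construct and treatment as the FLAG samples, so no sample shows Hep3B chromatin without added PROX1. Each deposited list pools the FLAG or Prox1 samples of its group. Depth per sample and spread between replicates therefore could not be given, peaks of a list are not replicates, and each p-value and interval describes counts of peaks within the lists and not the cultures. The authors describe their sites as relative to IgG, whereas their stated command for calling peaks includes no control sample, and IgG signal at these peaks was not analysed here.

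PROX1 is a homeodomain transcription factor of hepatocytes, lymphatic endothelium and several other lineages, and it can act as a repressor through corepressor complexes. A TSS marks where transcription of a gene begins, and the stretch around it is the promoter. Regulatory DNA away from promoters includes enhancers, where lineage factors such as FOXA, HNF4 and C/EBP in hepatocytes and signal-responsive factors such as AP-1 and TEAD bind, and insulators, where the zinc finger protein CTCF organizes chromatin loops. Promoters of widely expressed genes often lie in CpG islands, stretches rich in the dinucleotide CpG, and carry sites for SP/KLF, ETS, NRF1, NF-Y and YY1 factors.

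The motifs that were more frequent at distal summits than beside them are shown here in genomic sequence, each in the strongest distal peak that held it. Each line gives 100 bases of the hg38 plus strand around a summit, with the match in capitals. Matches on the minus strand appear as their reverse complement. The 6 motifs with the lowest adjusted p in the comparison with the flanks were chosen.
CTCF near IRF2BP1, chr19:45883463-45883562: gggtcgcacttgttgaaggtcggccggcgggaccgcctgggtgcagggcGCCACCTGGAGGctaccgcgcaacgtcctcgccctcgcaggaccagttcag
SP/KLF near ZFAND3, chr6:37791597-37791696: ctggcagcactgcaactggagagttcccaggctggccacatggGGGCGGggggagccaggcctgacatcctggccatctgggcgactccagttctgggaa
FOXA near PPP1R3G, chr6:5068347-5068446: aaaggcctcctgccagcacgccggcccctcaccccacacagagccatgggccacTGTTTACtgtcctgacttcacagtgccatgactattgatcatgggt
AP-1 in an intron of GPC5, chr13:91419855-91419954: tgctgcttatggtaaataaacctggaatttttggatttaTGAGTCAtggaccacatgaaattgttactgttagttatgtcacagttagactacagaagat
HNF4 near C19orf67, chr19:14081385-14081484: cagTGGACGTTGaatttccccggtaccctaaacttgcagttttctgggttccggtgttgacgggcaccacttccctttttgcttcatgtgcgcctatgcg
C/EBP near NFE2L3, chr7:25862720-25862819: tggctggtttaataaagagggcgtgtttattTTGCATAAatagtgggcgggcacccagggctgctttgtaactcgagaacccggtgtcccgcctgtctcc
The summit is base 51 of each line, and the centre of the match was 4.5 bp from it for CTCF and SP/KLF, 7 bp for FOXA, 8 bp for AP-1, 15.5 bp for C/EBP and 43 bp for HNF4. The peaks ranged from 628 bp wide (ZFAND3) to 1757 bp wide (IRF2BP1), with a summit −log10 p between 8.79 (NFE2L3) and 10.3 (ZFAND3). All but the GPC5 peak lay between genes. Each is named by the protein-coding gene with the nearest TSS. That TSS was 289428 bp away for the NFE2L3 peak, which is thus not close to this gene, and 2628 to 28080 bp away for the others.

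Distal peaks were mostly intronic or intergenic. By the annotation at the summit, 2664 (55.3%, interval 53.9 to 56.7) lay in introns and 1857 (38.6%, interval 37.2 to 39.9) lay between genes. The rest fell in exons of noncoding transcripts (118), 3′ UTRs (103), coding sequence (70) and 5′ UTRs (5). Of the intronic summits, 2107 were in protein-coding genes, and in 1757 of these (83.4%) the host was also the protein-coding gene with the nearest TSS. Promoter peaks differed by construction, with 21.9% in 5′ UTRs and 28.8% in introns.

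The median distal summit was 8490 bp from the nearest TSS of any transcript (quartiles 3293 and 20563 bp), and the farthest was 398098 bp away. Measured to the nearest TSS of a protein-coding transcript, the median was 24255 bp. In bins of distance, 645 summits lay at 1 to 2 kb, 1081 at 2 to 5 kb, 1858 at 5 to 20 kb, 1083 at 20 to 100 kb and 150 beyond 100 kb. The distal peaks closest to the 1-kb limit were near PALS2 (1001 bp, summit −log10 p 5.07), TRAM1 (1001 bp, 6.45) and PLEC (1002 bp, 7.405). The promoter peaks closest to it, which are not members, were near MCL1 (1000 bp, 5.40), FBXO17 (1000 bp, 6.25) and CHD2 (999 bp, 4.67).

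**Figure D1:**
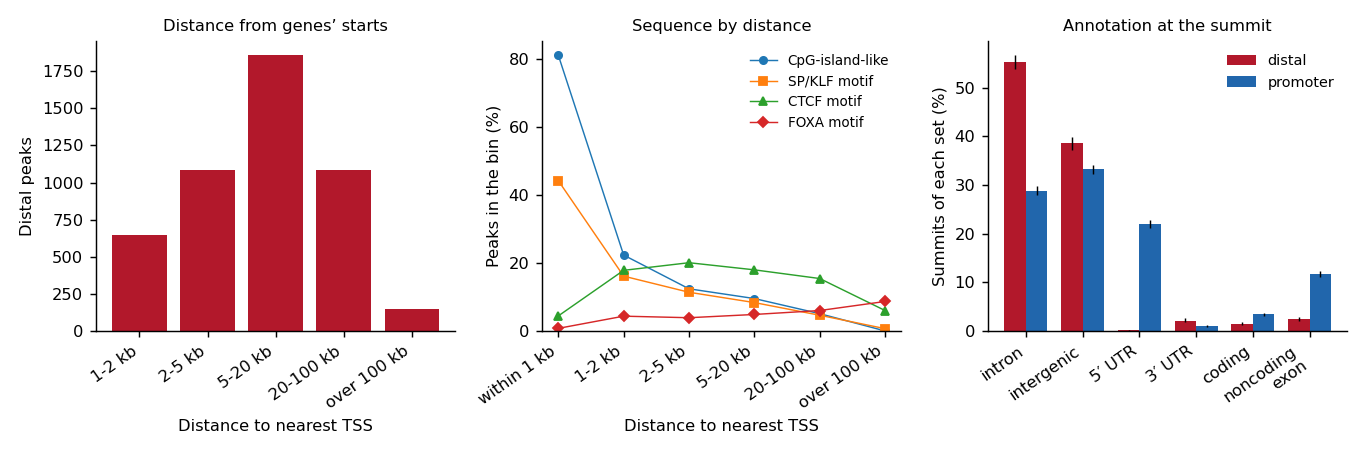
Left, the number of distal peaks (vertical axis) by distance to the nearest TSS. Middle, the share of peaks in each distance bin (percent, promoter peaks as the leftmost bin) with CpG-island-like sequence or a match to 3 motifs. Right, the annotation at the summit as a percentage of distal (red) and promoter (blue) peaks, with 95% Wilson intervals as bars. CpG-island-like sequence fell from 81.2% within 1 kb to 22.3% at 1 to 2 kb and 0% beyond 100 kb.

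The distal peaks were spread unevenly over the genome. Over all 22 chromosomes their density was 1.75 per Mb of sequenced DNA, with the highest values on chromosome 19 (4.02 per Mb), chromosome 17 (3.62) and chromosome 6 (3.24) and the lowest on chromosome 18 (0.662). Their share among the peaks of a chromosome was highest on chromosome 13 (132 of its peaks, 48.9%) and chromosome 6 (551, 45.8%), and lowest on chromosome 16 (81, 17.9%). On chromosome 6, the window from 25 to 30 Mb, which contains the large histone gene cluster, held 70 distal and 74 promoter peaks, the most distal peaks of any 5-Mb window. The window before it, from 20 to 25 Mb, held 51 distal and 14 promoter peaks. Among the 515 windows with a distal peak, the median was 7. Windows with many more distal than promoter peaks also lay on chromosome 3 (190 to 195 Mb, 44 and 18) and chromosome 13 (90 to 95 Mb, 31 and 7). Copy number in this carcinoma line was not measured. Its part in these densities, and in those of single genes below, was not tested.

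Most distal peaks stood alone. When summits within 12.5 kb of their neighbour were joined, 3606 peaks (74.9%) had no neighbour, 425 groups held 2 peaks and 109 groups held 3 or more, with 361 peaks among them. The group with the most peaks held 8, within 9.75 kb on chromosome 21 (chr21:8989455-8999208). Its nearest protein-coding gene was TPTE, and every peak nearest to TPTE was at least 1522345 bp from its TSS. This stretch is on the short arm of the chromosome, and whether reads map uniquely there was not examined. Groups of 5 peaks lay nearest to NFE2L3 (chr7:25847851-25862770), H2BC13 and ZNF184 on chromosome 6, and CLDN1 (chr3:190307495-190331273). CLDN1, which encodes a tight junction protein, was named after its values were seen.

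Distal peaks were weaker and narrower than promoter peaks. The caller's summit −log10 p, here the measure of strength, had a median of 6.06 in distal peaks (quartiles 5.45 and 6.78) and 6.71 in promoter peaks (5.83 and 7.72). Only 36.0% of distal peaks, but 57.0% of promoter peaks, exceeded the median of all peaks, 6.45 (odds ratio 0.423, 95% interval 0.394 to 0.455; two-sided Fisher's exact test over peaks, p = 2.97e-126). The median width was 513 bp in distal and 705 bp in promoter peaks, and 32.6% against 58.7% exceeded the common median of 635 bp (odds ratio 0.341, interval 0.317 to 0.367, exact p = 2.39e-193). The area under the significance curve per base was 0.691 against 0.811 at the medians. The sets overlapped widely, since the strongest distal peak reached 10.3 and the weakest promoter peak 4.04. Among peaks with an area of at least 500, the odds ratio for width was 0.790.

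**Figure D2:**
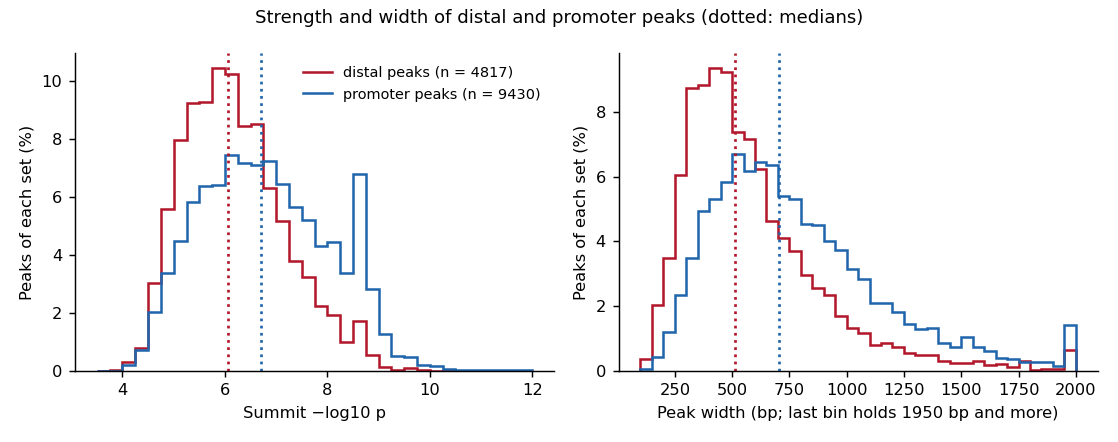
Histograms of summit −log10 p (left, bins of 0.25) and peak width in bp (right, bins of 50 bp) as percentages of the 4817 distal (red) and 9430 promoter (blue) peaks, with dotted lines at the medians. The distal medians, 6.06 and 513 bp, lie below the promoter medians of 6.71 and 705 bp, and the distributions overlap.

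Within the distal peaks, strength differed slightly by location. The median summit −log10 p was 6.05 for intronic and 6.12 for intergenic summits, and 48.4% against 51.6% exceeded the distal median (odds ratio 0.878, interval 0.780 to 0.988; two-sided Fisher's exact test, p = 0.0319). The difference was lost among peaks with a q-value below 0.01 (odds ratio 0.970, exact p = 0.644) and among those with an area of at least 500 (odds ratio 0.981, exact p = 0.899). Median strength was 6.10 at 1 to 2 kb, 6.14 at 2 to 5 kb, 6.06 at 5 to 20 kb and at 20 to 100 kb, and 5.87 beyond 100 kb.

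CpG-island-like sequence, defined as a 500-bp window at the summit with at least 50% GC and an observed to expected CpG ratio above 0.6, was found at 510 distal peaks (10.6%) and 7653 promoter peaks (81.2%). The odds ratio was 0.0275 (interval 0.0248 to 0.0306), with a two-sided Fisher's exact p too small for double precision. Windows of the same length set every 50 kb across the genome passed in 1.18%. Among distal peaks it was found in 8.05% of the weakest quartile of summit −log10 p, 9.97% of each of the middle quartiles and 14.4% of the strongest.

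The 20 strongest distal peaks spanned summit −log10 p values of 8.96 to 10.3, and the first of them ranked 13th among all peaks on the 22 chromosomes. This peak, chr6:37791409-37792036, lay between genes and was 28080 bp from a TSS of ZFAND3, which encodes a zinc finger protein. The next, chr4:10623886-10625880, lay in an intron of CLNK, an adaptor of immune receptor signalling, and was 1995 bp wide with a summit −log10 p of 9.98. The third was 1042 bp from a TSS of ATP9A, a phospholipid flippase, and thus barely outside the promoter window. Others of the 20 were nearest to genes of transcriptional control, namely TLE2, a Groucho-type corepressor (9.58), ID1, an inhibitor of basic helix-loop-helix factors (9.01), MAMSTR, a coactivator of MEF2 factors (9.29), and the zinc finger genes ZNF682 (9.75) and ZNF287 (9.17). Lipid metabolism was represented by ELOVL5, a fatty acid elongase (9.39), and by an intronic peak within ACACA, the acetyl-CoA carboxylase, whose nearest TSS belonged to C17orf78 (8.97). Signalling and matrix genes among the nearest were LTBP4, which binds latent TGFβ (9.62), SEMA4B, a semaphorin (9.01), SIK1, a salt-inducible kinase (8.995), CD300A, an inhibitory immune receptor (9.13), and the adhesion receptor ADGRL2 (8.96). MYO18A, an unconventional myosin (9.68), C19orf67 (9.50), COPZ2, a coatomer subunit (9.24), and GPC5, a glypican (9.22), completed the set with the peak in NCF1C, a pseudogene with near-identical copies on chromosome 7, where the assignment of reads is uncertain (9.21). The GC content of the 500 bp at these 20 summits ranged from 37.6% to 74.8%.

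Motifs were then compared between the 100 bp at each distal summit and the 100 bp centred 1000 bp to its left, so that each peak was its own control. Both strands were searched. AP-1 was written as TGANTCA, TEAD as CATTCCA, FOXA as TGTTTAC, HNF1 as GTTAATNAT, C/EBP as TTGCNNAA, the core site of nuclear receptors as AGGTCA, the motif of GATA factors as AGATAA, the single NFI site as TTGGCA, the E-box as CACGTG, NF-Y as CCAAT, SP/KLF as GGGCGG, ETS as CCGGAAG and YY1 as AANATGGCG. HNF4, written as CAAAGTCCA, NRF1, written as GCGCATGCG, CREB/ATF, written as TGACGTCA, and the 12-base CTCF consensus were allowed 1 mismatch, and the 12-base PROX1 consensus 2. Some motifs share letters. In distal summits, 60 of the 241 peaks with CREB/ATF (24.9%) had it overlap a nuclear receptor site, 55 of the 304 peaks with an NFI site (18.1%) had it overlap NF-Y and 43 (14.1%) C/EBP, and 5 of the 11 peaks with YY1 had it overlap CTCF. A match is a string of letters and does not show that the factor was bound.

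Of the 18 motifs, 11 (61.1%) were more frequent at the summit and 1 (5.56%) less frequent (exact McNemar test over peaks, two-sided, Benjamini-Hochberg adjusted over the 18). CTCF stood apart from the rest. It was found at 842 summits (17.5%, interval 16.4 to 18.6) and in 22 flanks (0.457%), with 839 peaks holding it at the summit alone and 19 in the flank alone (adjusted exact p = 7.02e-219). Genome-wide windows of 100 bp held it in 0.506%. Its matches were concentrated at the summit, from 5.63% of peaks in the 20-bp bin just right of the summit to 0.436% in the bin centred 110 bp to the left.

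Of the motifs of liver-enriched factors, FOXA, HNF4 and C/EBP were more frequent at summits. FOXA, the motif of the forkhead pioneer factors, was found at 238 summits (4.94%, interval 4.36 to 5.59) against 67 flanks (1.39%, adjusted exact p = 7.25e-24) and 1.47% of genome-wide windows. HNF4, a nuclear receptor of hepatocytes, reached 4.90% against 2.35% (adjusted exact p = 7.53e-11, genome 2.81%). C/EBP, the leucine zipper factors of hepatocytes and adipocytes, reached 7.43% against 4.28% (adjusted exact p = 1.10e-10, genome 5.29%). HNF1 was found at 39 summits and in 22 flanks (0.810% against 0.457%, adjusted exact p = 0.0503, genome 0.415%), and this call changed with the flank and window. At least 1 of these 4 motifs was present at 812 summits (16.9%), in 8.26% of flanks, in 9.67% of genome-wide windows and at 4.24% of promoter summits. Near the summit, FOXA was found in 0.996%, 1.31% and 0.913% of peaks in the bins centred 50, 30 and 10 bp to the left. To the right it was 0.851%, 1.08% and 1.16% at 10, 30 and 50 bp. These bins held 41 to 63 peaks each, and the differences between them were not tested.

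Motifs of signal-responsive factors were also raised. AP-1, the FOS and JUN dimers, was found at 324 summits (6.73%) against 3.32% of flanks (adjusted exact p = 7.06e-14, genome 3.10%). TEAD, the DNA-binding partner of YAP, was found at 169 summits (3.51%) against 1.74% (adjusted exact p = 1.18e-07, genome 1.81%). At least 1 of the pair was present at 477 summits (9.90%) and in 5.00% of flanks.

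The remaining calls belonged mostly to factors of GC-rich DNA. SP/KLF rose from 2.97% of flanks to 8.99% of summits (adjusted exact p = 4.40e-39, genome 1.60%), ETS from 0.311% to 1.39% (adjusted exact p = 1.35e-08, genome 0.187%), the E-box from 1.14% to 2.22% (adjusted exact p = 7.71e-05, genome 0.918%) and CREB/ATF from 3.20% to 5.00% (adjusted exact p = 1.74e-05, genome 2.95%). The NFI site rose from 4.86% to 6.31% (adjusted exact p = 0.00367, genome 4.81%). The median GC content was 49% in the summit windows, 43% in the left flanks and 40% across the genome, and the part of GC content in these differences was not tested. GATA was the motif found less often at summits, 5.23% against 6.91% (adjusted exact p = 0.00103, genome 7.34%), and with the right flank as control, 6.00%, this was lost (adjusted exact p = 0.131).

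The PROX1 consensus was not among the raised motifs. It was found at 59 distal summits (1.22%, interval 0.951 to 1.58), in 76 left flanks (1.58%), in 1.41% of genome-wide windows and at 128 promoter summits (1.36%). The difference from the flanks missed the threshold (58 peaks with a match at the summit alone, 75 in the flank alone, adjusted exact p = 0.198). The 59 peaks with a match had a median summit −log10 p of 5.75, against 6.08 for the others. It passed, with fewer matches at summits, among the 1074 peaks with an area of at least 500 (8 at the summit alone, 23 in the flank alone, adjusted exact p = 0.0213), among peaks with a q-value below 0.01 (44 and 69, adjusted exact p = 0.0326), in windows of 50 bp (ratio 0.541, adjusted exact p = 0.0459) and with 3 mismatches allowed (611 and 690, adjusted exact p = 0.0423). With 1 mismatch allowed, 5 peaks had a match at the summit alone and 1 in the flank alone, too few to give a direction (adjusted exact p = 0.251). The consensus came from background knowledge of the factor and is not the matrix named in the authors' methods, so these values do not cover other forms of the site. NRF1 (1.12%, genome 0.283%), NF-Y (12.8%, genome 14.2%), the nuclear receptor site (7.74%, genome 6.37%) and YY1 (0.228%, genome 0.230%) also missed the threshold against the flanks.

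**Figure D3:**
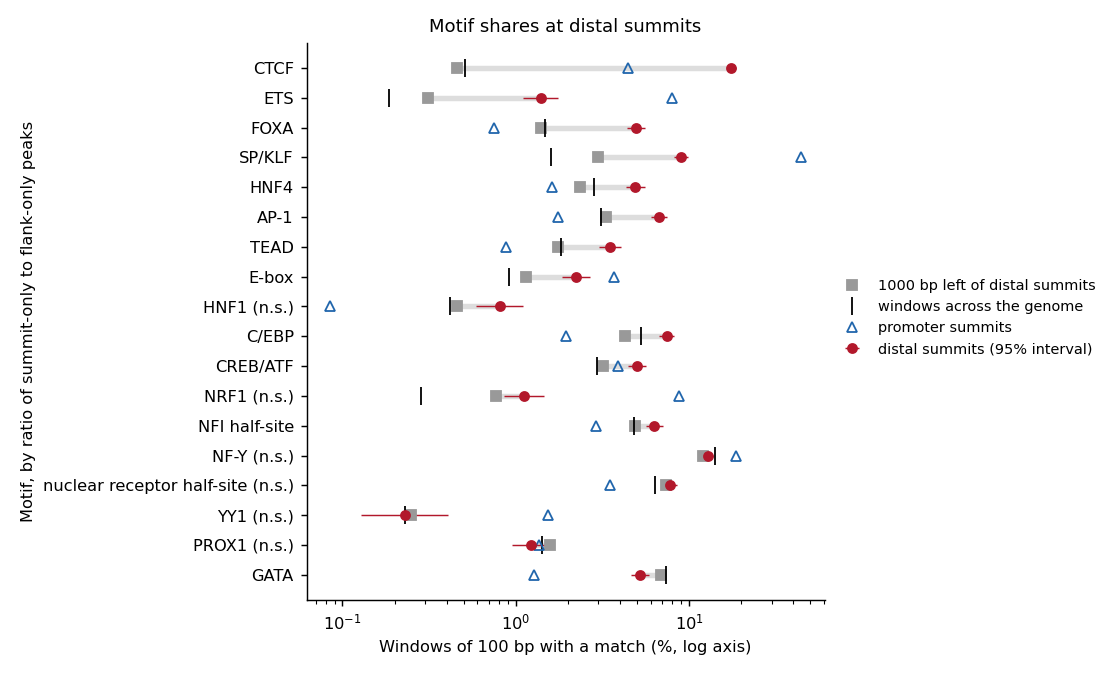
Share of 100-bp windows with a match to each of 18 motifs (log axis, percent) at distal summits (red, 95% Wilson interval), 1000 bp to their left (grey squares), in windows across the genome (black ticks) and at promoter summits (blue triangles). Motifs are ordered by the ratio of peaks with a match at the summit alone to those with a match in the flank alone, and n.s. marks an adjusted p of 0.05 or more. CTCF has the widest gap, 17.5% against 0.457%, while PROX1 lies at 1.22% against 1.58%.

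**Figure D4:**
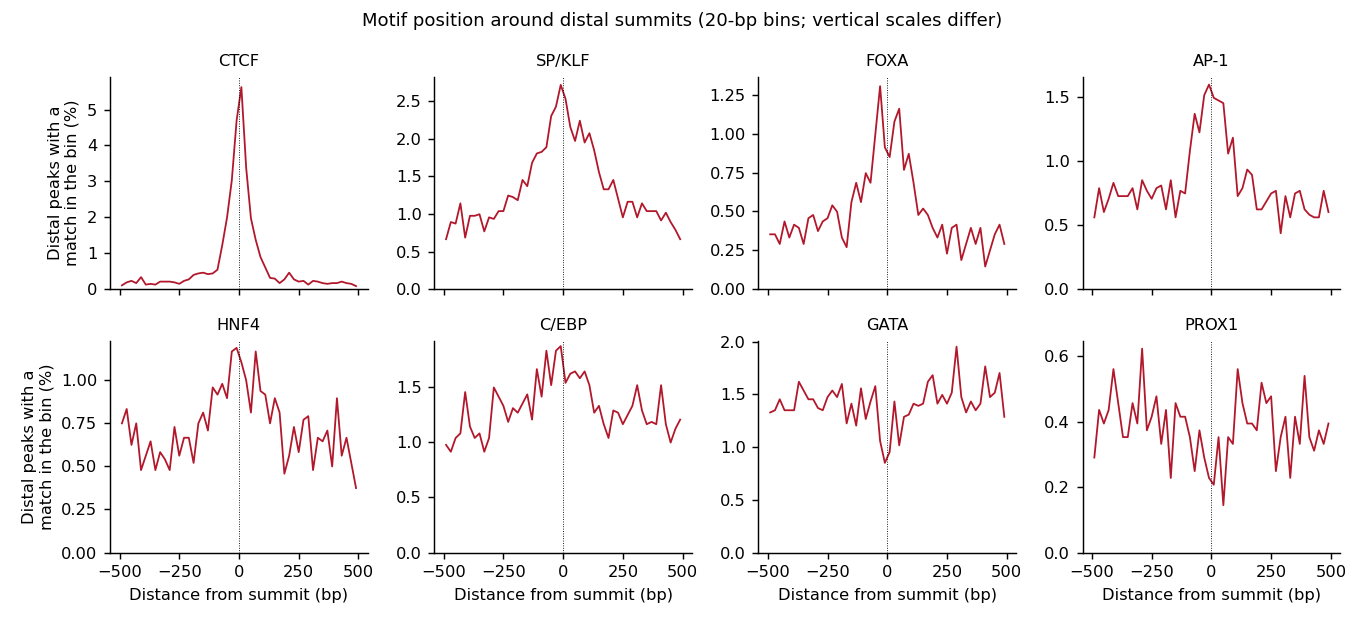
Percentage of the 4817 distal peaks with a motif match centred in each 20-bp bin from 500 bp left to 500 bp right of the summit, for 8 motifs with separate vertical scales. CTCF peaks at the summit with 5.63%. FOXA is 1.31% and 1.16% in its highest bins on either side and 0.913% and 0.851% in the bins next to the summit. GATA is lowest in the bin just left of the summit (0.851%). PROX1 varies between 0.145% and 0.623% over all bins, with 0.228% in that bin. Differences between bins were not tested.

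Distal and promoter peaks carried different motifs. Of the 18, 11 (61.1%) were more frequent at distal than at promoter summits and 6 (33.3%) less frequent (two-sided Fisher's exact test, Benjamini-Hochberg adjusted). The odds ratio was 9.61 for HNF1 (interval 4.36 to 19.2; 39 distal and 8 promoter summits), 6.85 for FOXA (5.22 to 8.90), 4.59 for CTCF (4.06 to 5.19), 4.28 for GATA (3.43 to 5.32), 4.09 for TEAD (3.13 to 5.32), 4.06 for C/EBP (3.38 to 4.86), 4.02 for AP-1 (3.32 to 4.86) and 3.12 for HNF4 (2.54 to 3.83), and it was between 1.297 and 2.31 for the nuclear receptor site, NFI and CREB/ATF. In the opposite direction, NRF1 had an odds ratio of 0.119 (0.0909 to 0.158), SP/KLF 0.125 (0.112 to 0.139; 8.99% of distal against 44.2% of promoter summits), YY1 0.148 (0.0843 to 0.281), ETS 0.163 (0.128 to 0.211), the E-box 0.593 (0.478 to 0.740) and NF-Y 0.639 (0.579 to 0.706). Median GC content was 67% in the promoter windows and 49% in the distal windows. When peaks with CpG-island-like sequence were left out of both sets, 10 motifs were more and 5 less frequent at distal summits, with CREB/ATF (odds ratio 1.19) and YY1 (0.515) past the threshold no longer. The odds ratios of the other called motifs moved toward 1, to 2.77 for FOXA, 2.31 for HNF1, 2.24 for C/EBP, 2.11 for CTCF, 1.85 for GATA, 1.697 for TEAD, 1.52 for HNF4, 1.47 for AP-1, 0.324 for ETS, 0.239 for NRF1 and 0.224 for SP/KLF, and between 1.36 and 1.396 for the nuclear receptor and NFI sites, and they were 0.634 for the E-box and 0.697 for NF-Y. PROX1 missed the threshold (odds ratio 0.901, interval 0.664 to 1.23, adjusted exact p = 0.535).

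The mix also changed with distance. SP/KLF matches went from 16.1% of peaks at 1 to 2 kb to 4.62% at 20 to 100 kb, whereas FOXA went from 4.34% to 6.00%, C/EBP from 4.34% to 9.70% and AP-1 from 3.88% to 8.31% over the same bins. CTCF was found in 20.1% of peaks at 2 to 5 kb and in 15.4% at 20 to 100 kb. The 150 peaks beyond 100 kb held C/EBP in 15.3% and CTCF in 6.00%. These shares by distance were not tested.

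Peaks with and without CTCF differed in shape. The 842 with CTCF were narrower, with a median width of 410 bp against 543 bp, and had a median summit −log10 p of 6.34 against 6.03. Intergenic summits made up 43.7% of them and 37.5% of the others. Liver-enriched motifs were found in 71 of the peaks with CTCF (8.43%) and in 18.6% of those without it, and AP-1 or TEAD in 4.16% and 11.1%. In contrast, the 238 FOXA peaks had a median width of 556 bp, and intergenic summits were 30.3% of them. None of the 18 motifs was found at 1623 distal summits (33.7%), and 2879 (59.8%) had no CTCF, liver-enriched, AP-1 or TEAD match.

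Strength separated the motifs further. Between the strongest and the weakest quartile of distal peaks, 3 of 18 motifs (16.7%) were more frequent among the strongest and 0 (0%) among the weakest (two-sided Fisher's exact test, Benjamini-Hochberg adjusted), where 1, C/EBP, passed an unadjusted p of 0.05. CTCF was found in 9.13%, 17.8%, 23.6% and 19.4% of peaks from the weakest to the strongest quartile (odds ratio of strongest to weakest 2.401, interval 1.88 to 3.05, adjusted exact p = 5.97e-12). SP/KLF went from 5.06% to 13.0% (odds ratio 2.79, interval 2.04 to 3.77, adjusted exact p = 6.70e-11) and NRF1 from 0.581% to 2.08% (odds ratio 3.63, interval 1.52 to 7.83, adjusted exact p = 0.00735). FOXA (5.31% and 4.65%), HNF4 (5.23% and 5.32%) and TEAD (3.65% and 3.32%) showed no difference past the threshold. The odds ratio was 0.870 for FOXA (interval 0.604 to 1.26). When peaks were ranked by area per base instead, CTCF and SP/KLF were again more frequent in the strongest quartile and C/EBP (odds ratio 0.603) and CREB/ATF (0.498) less frequent.

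Against the 25091 distal autosomal peaks of MEFs, another cell type and species with the same antibody and the same days of overexpression, 8 of 18 motifs (44.4%) were more frequent in Hep3B and 5 (27.8%) less frequent (two-sided Fisher's exact test, Benjamini-Hochberg adjusted). FOXA was found at 4.94% of Hep3B and 1.39% of MEF distal summits (odds ratio 3.68, interval 3.12 to 4.36, adjusted exact p = 3.58e-45), beside 1.34% in the flanks of the MEF summits. HNF1 had an odds ratio of 4.26 (2.80 to 6.50), C/EBP 1.83 (1.62 to 2.07), GATA 1.91 (1.65 to 2.21), SP/KLF 1.94 (1.73 to 2.17) and HNF4 1.39 (1.20 to 1.62). AP-1 was the other way, with 6.73% in Hep3B and 13.3% in MEFs (odds ratio 0.471, interval 0.419 to 0.531, adjusted exact p = 8.48e-41), as were TEAD (0.737, 0.627 to 0.870) and CTCF (17.5% and 22.3%, 0.738, 0.681 to 0.7996). Cell type, species, depth and any reprogramming factors in the MEFs cannot be told apart here. The other calls were ETS and CREB/ATF, more frequent in Hep3B, and the NFI site and NF-Y, less frequent. The odds ratios compare summits alone. GATA was below its left flanks in both lists, 5.23% against 6.91% in Hep3B and 2.81% against 5.28% in MEFs. Left-flank shares in Hep3B and MEFs were 0.457% and 0.251% for HNF1 and 2.97% and 2.05% for SP/KLF. For C/EBP they were 4.28% and 3.91%, and for HNF4 2.35% and 2.74%. At MEF summits the shares were 4.20% for C/EBP, 3.57% for HNF4, 4.85% for SP/KLF and 0.191% for HNF1. SP/KLF and HNF4 were thus above their left flanks in both lists. The part of the flank shares in the odds ratios was not tested. With the same number of peaks taken from the top of the MEF list, the calls held for all 9 motifs given with an odds ratio here.

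To place the peaks beside genes, each was given to the protein-coding gene with the nearest TSS. Of 18765 protein-coding genes, 2956 (15.8%) were nearest to at least 1 distal peak, 1988 of them to 1 peak, 767 to 2 or 3 and 201 to 4 or more. A promoter peak within 1 kb of a TSS of the gene's own protein-coding transcripts was found for 8628 genes (46%). Among genes nearest to a distal peak the share was 59.2% (1749 genes), and among the other 15809 genes it was 43.5%. The count also moved with the room around a gene. Over the stretch of genome nearest to each gene's TSSs, here called its territory, the share of genes with a distal peak was 5.24% in the quartile with the smallest territories (median 13.2 kb) and 30.1% in the quartile with the largest (median 274 kb). Nearness does not show that a gene is a target.

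SOX4, a transcription factor of progenitor and biliary cells, was nearest to the most distal peaks. Of its 22, only 4 were within 50 kb of its TSS, 8 had an area of at least 500, and 10 were more than 5000 bp from every TSS. The 22 peaks spanned 825 kb on chromosome 6 (summits from 21104081 to 21929043), had a median summit −log10 p of 6.49, and 18 of them lay in introns, mostly of the noncoding gene CASC15. The strongest (8.20, chr6:21588021-21589783) was 4284 bp from the SOX4 TSS. SOX4 also had a promoter peak, and its territory of 875 kb held 25.1 distal peaks per Mb, against 1.75 genome-wide. FOXA2, the pioneer factor of liver and gut endoderm, was nearest to 11 peaks over 280 kb on chromosome 20, with the strongest (8.02, chr20:22490110-22491570) 93494 bp from its TSS. Of these 11, 8 were in introns of noncoding genes such as LINC00261 and 1 lay in the coding sequence of FOXA2. TBL1XR1, a subunit of the NCoR and SMRT corepressor complexes, was nearest to 12 peaks spread over 1634 kb of chromosome 3, the strongest at 8.21 (chr3:177357721-177360379). IRS2, an adaptor of the insulin receptor, was nearest to 11, of which the strongest (7.97) lay in its own coding sequence.

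The other 6 genes with the most distal peaks were of several kinds. TNS3, a focal adhesion protein, was nearest to 14 peaks (strongest 8.26), the glypican genes GPC6 and GPC5 on chromosome 13 to 12 and 11 (strongest 8.46 and 9.22), H2BC13, a histone H2B gene, and ZNF184, a zinc finger gene, both in the chromosome 6 histone region, to 12 and 11, and TPTE, a transmembrane phosphatase homolog, to 11. Among the 10 genes, density was highest for the 2 in the histone region. It was 71.6 per Mb in the 168-kb territory of H2BC13 and 52.5 per Mb in that of ZNF184. The TPTE peaks lay at least 1522345 bp from its TSS on the short arm of chromosome 21, in a territory of 12066 kb with 0.912 per Mb. How uniquely reads map there was not examined. Within 50 kb of their TSS, TNS3 kept 8 peaks, TBL1XR1 2, IRS2 3, TPTE 0, and FOXA2, H2BC13, ZNF184, GPC5 and GPC6 kept 4 or 5. Of the 10 genes, 8 had a promoter peak and H2BC13 and TPTE had none. A CTCF match was held by 17.5% of all distal peaks. It was found in 2 of 14 TNS3 peaks, 2 of 12 H2BC13 peaks and 1 each of the SOX4, TBL1XR1 and FOXA2 peaks. The peaks of the other genes among the 10 held none.

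Among 13 gene lists of up to 25 genes, hepatocyte regulators and biliary genes were most often nearest to a distal peak, with 14 of 25 genes each (56%, beside 15.8% of all protein-coding genes). The median territory was 101 kb for the regulators and 90.1 kb for the biliary genes, against 58.0 kb for all genes, and 11 and 7 of their genes were in the quartile with the largest territories, where the share was 30.1%. Of the regulators, NR5A2, a nuclear receptor of liver and pancreas, had 7 distal peaks (strongest 7.30), FOXA1 had 5 (7.06, 128597 bp away in an intron of MIPOL1) and the others beside FOXA2 had 1 to 3. HNF4A, the master regulator of hepatocytes, had a single peak in its own intron, 14928 bp from its TSS (6.65, chr20:44370044-44371459), with both a liver-enriched and an AP-1 or TEAD match, and no promoter peak. CEBPA and CEBPB, leucine zipper factors, had 1 each at 9036 and 4390 bp (5.75 and 5.95). KLF15 (6.72), CREB3L3 (7.94), NR1H4, the bile acid receptor (7.08), PPARA, a fatty acid sensor (7.24), RXRA (6.08), GATA4 (5.99) and ONECUT2 (4.78) also had 1.

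PROX1 itself was nearest to 3 distal peaks and had a promoter peak. The peak nearest to it, 1399 bp from its TSS in a PROX1 exon, had a summit −log10 p of 5.03, the next, in a PROX1 intron 32708 bp away, 5.29, and the strongest, in an intron of LINC02775 at 133586 bp (chr1:214122906-214123806), 7.12.

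Among the biliary genes, SOX4 held 22 of the 47 peaks, of which 4 were within 50 kb of it. BICC1, an RNA-binding protein of duct epithelia, had 7 (strongest 6.91), CD24, a surface glycoprotein of progenitors, 5 (6.62), and the keratin genes KRT8, KRT18 and KRT19 had 2, 1 and 1, with the KRT19 peak 20765 bp away (6.87). CFTR, the chloride channel, had 1 in its intron (6.78). The genes of this list, among them KRT8, KRT18 and TJP1, are not all particular to bile ducts. TJP1 served the authors as a marker of hepatocyte-like cells. Genes of hepatocyte secretion and metabolism reached 8 of 25 (32%), with a median territory of 45.7 kb and 2 genes in the quartile with the largest territories. ALB, albumin, had 2 peaks at 51424 and 55539 bp (strongest 6.08), FGB, a fibrinogen chain, 2 at 2725 and 3325 bp (strongest 5.86), and APOE, an apolipoprotein, 1 at 1946 bp (6.53). The strengths of all 10 peaks of this list were at most 6.96, the value of a peak in ERBB4 that was 803676 bp from CPS1.

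Of the oncofetal and growth genes, 11 of 24 were nearest to a distal peak (45.8%, with 14 in the quartile with the largest territories). MYC, the growth regulator, had 7. The closest lay 7662 bp from its TSS (7.49, chr8:127745251-127745592), 3 were between 419790 and 459327 bp away in or beyond the noncoding gene PVT1, with the strongest at 8.23 (chr8:128196568-128197840), and 3 were 817483 to 915813 bp away. MYC also had a promoter peak. Of its 7 distal peaks, 3 held a liver-enriched motif, beside 16.9% of all distal peaks. IGF2BP2, a fetal RNA-binding protein, had 2 (strongest 8.58), CCND1, or cyclin D1, 2 at 88915 and 143864 bp (strongest 8.07), IGF2BP1 2 (7.98), CDK6 1 (7.04), and AFP, the fetal albumin homolog, 1 in its own intron (6.38). Of the Wnt pathway, 12 of 25 genes (48%) were nearest to a peak, but 18 of the 25 were in the quartile with the largest territories. FZD5, a Wnt receptor, had 6 (strongest 8.13), TCF7L2, a Wnt effector, 4 (6.34), RNF43, a ubiquitin ligase that removes Wnt receptors, 3 (7.74) and LRP5, a coreceptor, 2 (7.68).

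Notch genes reached 7 of 25 (28%). HES1, the main Notch target, had 6 (strongest 7.91) and JAG1, a ligand, 4, with the strongest 543066 bp away (8.05). Hippo-YAP genes reached 8 of 24 (33.3%), with 1 peak each except TEAD1 with 2 (7.49). A promoter peak was found for 22 of these 24, beside 46% of all protein-coding genes. In the other lists this ranged from 3 of 25 muscle and heart genes to 18 of 24 corepressor genes. Mesenchymal genes reached 9 of 25 (36%), among them ZEB2 with 4 peaks from 637395 bp away (6.60), PDGFRA with 3 (7.10) and TGFBR2 with 2 (7.86). Adipocyte genes reached 7 of 25 (28%), including PPARG with 3 (5.81) and SREBF1 with 2 (7.50). Neuronal genes reached 6 of 23 (26.1%), lymphatic endothelial genes 6 of 24 (25%), led by FOXC1 with 7 peaks (6.98), corepressor genes 4 of 24 (16.7%) and muscle and heart genes 4 of 25 (16%). Of these lists, 16 of the mesenchymal, 15 of the neuronal and 14 of the lymphatic endothelial genes were in the quartile with the largest territories. No test was run on any list.

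**Figure D5:**
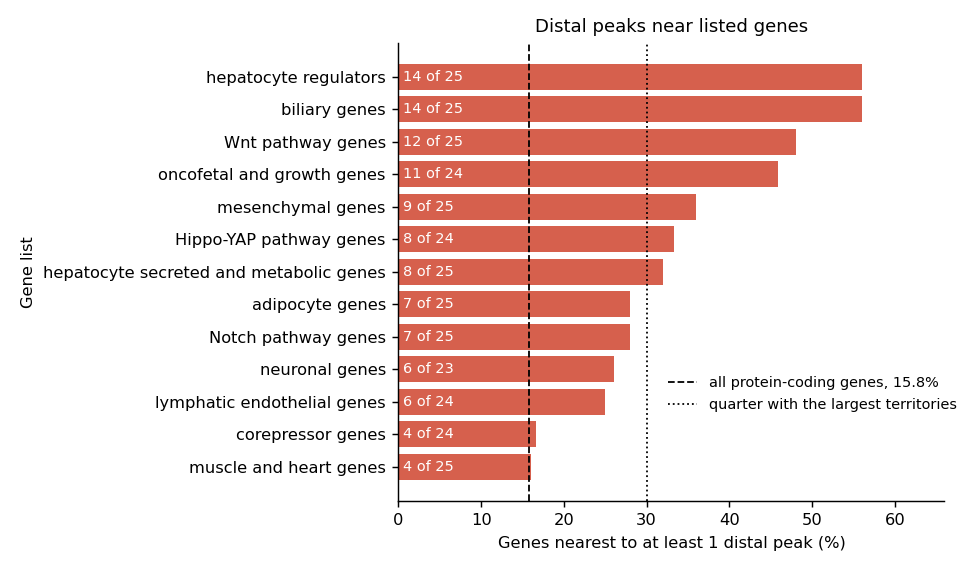
Percentage of the genes of 13 lists that were the protein-coding gene nearest to at least 1 distal peak (bars, with counts). The dashed line marks all protein-coding genes, 15.8%, and the dotted line the quartile of genes with the largest territories, 30.1%. Hepatocyte regulators and biliary genes reach 56%, and muscle and heart genes 16%.

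Genes near distal peaks in Hep3B were compared by symbol with those of the mouse lists. Of the 2660 such genes with a symbol in both annotations, 2076 (78.0%) were also nearest to a distal MEF peak and 1825 (68.6%) to a distal liver peak, where 53.8% and 48.2% of all 15154 shared symbols were. The Hep3B genes made up 25.5% of the MEF genes and 25.01% of the liver genes, against 17.6% of all shared symbols. The part of territory size in these shares was not tested. FOXA2 was nearest to 40 distal peaks in liver and 7 in MEFs, IRS2 to 39 and 10, TBL1XR1 to 42 and 20, and SOX4 to 11 and 11, in lists with 39351 and 25091 distal peaks.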

How the data were processed

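The authors trimmed paired reads, aligned them to hg38 or mm10 with Bowtie2 2.4.2 and called consensus peaks over the samples of a group with Genrich 0.6.1 at a lenient q-value limit, excluding duplicates and mitochondrial reads. Each deposited list gives the position of a peak, a signal (the area under the significance curve summed over the peak by the authors' caller), the −log10 p and −log10 q of the summit, and the offset of the summit, all without normalization between lists. The deposited score column was not used. Strength was taken as the summit −log10 p because 115 distal peaks tie at the highest −log10 q, 3.74.

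Samples were grouped by their labels, and peaks on chromosomes 1 to 22 were split by distance to the nearest GENCODE 44 TSS. Mouse peaks were annotated with GENCODE M21. Motif windows of 100 bp came from the reference genomes, and 55128 windows set every 50 kb across hg38 gave genome-wide shares. Fisher's exact test, two-sided, compared shares between sets and the exact McNemar test compared summits with flanks, with Benjamini-Hochberg adjustment over 18 motifs. The scans were tested on simulated sequences with planted motifs. Genes were named by rule: the 20 strongest peaks, the 10 genes nearest to most peaks, listed genes nearest to a peak, and the strongest peak per motif shown. For the last, the exclusions given with the sequences applied. The peak set, gene lists and motifs were chosen with earlier results of these data known. Python 3.11.15 with SciPy 1.17.1 was used. Alternatives were other TSS distances, protein-coding TSSs, stricter q-values, a higher area floor, other windows and flanks, other mismatch limits, another measure of strength, and equal numbers of peaks.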

Additional observations from a re-analysis of the deposited data

How the results depend on the processing

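No paired analysis was possible because each list pools the replicates of its group, and no sample could be left out for the same reason. Of 576 alternative values, 503 kept their direction and their side of the threshold, or stayed within 1.5 times the count. Many of these could hardly move, so the count overstates how far the results were tried. A changed mismatch limit for PROX1 left the ratios of the other motifs as they were, and a q-value below 0.05 kept 4816 of the 4817 peaks. The number of distal peaks fell to 3091 with a TSS distance of 5000 bp and to 1074 with an area of at least 500, and the number of nearest genes to 1966 and 841, since both settings keep fewer peaks. Intronic against intergenic strength lost its call at a q-value below 0.01 (odds ratio 0.970) and at the higher area (0.981). Motifs less frequent than in the flanks numbered 2 in place of 1 with windows of 50 bp, 1 more mismatch for PROX1, a q-value below 0.01 and an area of at least 500, where PROX1 joined GATA, and 0 with the right flank. Ranked by area per base, 2 motifs were less frequent among the strongest peaks, in place of 0. Reversals were found for YY1 with the right flank (ratio 1.22), PROX1 with 1 fewer mismatch (5), AP-1 (odds ratio 0.684), the nuclear receptor site (0.911), the E-box (0.933) and CREB/ATF (0.498) by area per base, and the E-box (0.963) and NRF1 (0.816) with equal numbers of MEF peaks. The causes were not tested. With TSSs within 50 kb only, SOX4 kept 4 of its 22 peaks. Depth per sample is unknown, so a region without a peak is not shown to be unbound.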
